A study of Mus musculus with 24 samples.

Results

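The Ifit family was described here as 6 of the 54532 genes in the deposited expression table, taken by symbol and not by their values: *Ifit1*, *Ifit2*, *Ifit3*, *Ifit3b*, *Ifit1bl1* and *Ifit1bl2*. All 6 were measured by sequencing polyA RNA from 2 kinds of mouse bone marrow culture, macrophages (BMDMs) raised in L929-conditioned medium and dendritic cells (BMDCs) raised in IL-4 and GM-CSF. The WT label marked cells of Tmem173 fl/fl mice. The CRE label marked cells of Tmem173 fl/fl mice that also carried a tamoxifen-inducible Cre driven by the myeloid gene *Lyz2*. Mice of both genotypes thus carried the floxed allele. The study's methods describe tamoxifen injections for both genotypes, and their account of the marrow cultures does not say whether these donors had received it. Cells of each genotype and cell type were left without agonist (control) or given the mouse STING agonist DMXAA at a dose the series text gives as 40 µM and the study's methods give in µg/mL. This made 8 groups of 3 libraries, 24 in all, and the age of the mice and the hours of exposure behind these libraries are not stated for them.

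Ifit proteins are cytosolic proteins built of tetratricopeptide repeats that bind RNA and are among the most strongly interferon-induced products of a cell. Ifit1 holds on to capped RNA that lacks the methyl mark which host mRNA carries next to its cap and blocks its translation, Ifit2 binds RNA and joins Ifit1 and Ifit3 in complexes, and Ifit3 is known to act through these partners. STING, the product of *Tmem173*, passes the signal of cytosolic DNA through the kinase TBK1 to the transcription factor IRF3, and secreted type I interferon then acts through its receptor on genes that carry the interferon-stimulated response element, a pair of GAAA repeats, in their promoters.

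The 6 genes lie next to each other on chromosome 19, from 34550694 to 34650009 in GRCm38 coordinates, a stretch of 99.3 kb that holds them in the order *Ifit2*, *Ifit3*, *Ifit1bl1*, *Ifit3b*, *Ifit1bl2* and *Ifit1*. *Ifit1bl1* and *Ifit1bl2* are on the minus strand and the other 4 on the plus strand, none overlaps another gene of the table, and all 6 are annotated as protein-coding. Between *Ifit1bl2* and *Ifit1*, which point away from each other, lie 127 bases. The stretches before the start sites are shown because the response element can be read in them. RefSeq promoter windows (GRCm38.p6, 250 bases before to 50 after each annotated start) matched all 6 genes with 9 windows. The motif GAAANNGAAA, searched on both strands with overlaps allowed, was in 6 of these 9 windows and in 3.44% of the 32851 windows of this length in the reference. By gene it was in 5 of the 6 members and in 3.99% of the 27025 genes of the reference. The member windows are not independent, since those of *Ifit1* and *Ifit1bl2* overlap by 245 bases. The bases below run 5′ to 3′ on the strand of the named gene, with the motif, which reads here as its reverse complement, in capitals.
Ifit1 (chr19:34640744-34640870, + strand): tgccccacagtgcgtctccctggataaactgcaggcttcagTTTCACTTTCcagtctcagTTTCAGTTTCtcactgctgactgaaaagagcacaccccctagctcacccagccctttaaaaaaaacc
Ifit3 (chr19:34583329-34583528, + strand): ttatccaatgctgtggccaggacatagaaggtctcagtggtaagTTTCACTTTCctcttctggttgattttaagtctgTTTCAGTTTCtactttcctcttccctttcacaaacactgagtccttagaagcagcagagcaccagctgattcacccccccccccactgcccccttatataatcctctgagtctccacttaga
Ifit3b (chr19:34607757-34607956, + strand): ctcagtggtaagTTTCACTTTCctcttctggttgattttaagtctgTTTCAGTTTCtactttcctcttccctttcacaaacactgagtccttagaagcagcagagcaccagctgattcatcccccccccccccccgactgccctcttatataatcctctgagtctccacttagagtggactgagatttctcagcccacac
Ifit1bl1 (chr19:34601969-34602118, - strand): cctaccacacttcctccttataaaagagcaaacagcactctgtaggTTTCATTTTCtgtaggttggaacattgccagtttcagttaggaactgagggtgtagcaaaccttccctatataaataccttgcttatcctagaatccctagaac

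The stretch printed for *Ifit1* is the whole space between *Ifit1bl2* and *Ifit1*, so that its 2 motifs stand upstream of both genes. In *Ifit3* the motifs began at positions -156 and -122 from the RefSeq start and in *Ifit3b* at -188 and -154, the same 34 bases apart, and when the 2 windows were aligned 259 of 260 paired bases were identical, gaps left out. The windows of *Ifit1* and *Ifit1bl1* had 69.7% of paired bases in common. Neither of the 2 windows of *Ifit2* held these letters, which says only that they are not in those windows.

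*Ifit3* and *Ifit3b* are close copies also in their transcripts. Of all 100-base stretches in the annotated *Ifit3* transcripts, 31.7% also occurred in *Ifit3b*, and 27.4% of those of *Ifit3b* in *Ifit3*. For the other members the share was 3.29% in *Ifit1*, 2.91% in *Ifit1bl2*, 0.510% in *Ifit1bl1* and 0 of 3925 stretches in *Ifit2*, and every shared stretch was shared within the family. How reads that match both copies were counted is not given in the sources used here, so the split between *Ifit3* and *Ifit3b* is uncertain.

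Total counts per library were 15657347 to 18912887. *Tmem173* was at 8.76 to 31.8 FPKM in BMDMs and 19.7 to 55.3 FPKM in BMDCs, CRE-labelled libraries included, as a count over the whole gene that does not separate the floxed part. The genotype is therefore written as a label. The 4 BMDM libraries numbered 3 went against their cell type label. Their 7 macrophage markers summed to 42.2 to 70.6 CPM (counts scaled to a common library total) against 9420 to 21076 in the other 8 BMDM libraries, their 6 leukocyte markers to 0.556 to 1.92 CPM against 3135 to 4151, and their 7 fibroblast markers to 12220 to 18788 CPM against 28.7 to 458. These libraries are given apart, and the tests in BMDMs used the libraries numbered 1 and 2, with the fit on all 12 beside them. The 6 dendritic cell markers summed to 5934 to 9922 CPM in BMDCs and to 166 to 635 CPM in BMDMs numbered 1 and 2. The 6 neutrophil markers reached at most 348 CPM, in a BMDC library. CRE-labelled BMDM libraries 1 and 2 lay closer to each other than the other BMDM pairs, at a mean chi-square per gene of 3.23 in control and 4.95 under DMXAA, where sampling noise alone gives 1 and the WT-labelled pairs had 92.3 and 69.2. In BMDCs the closest pairs crossed the labels, CRE 1 with WT 3 and CRE 3 with WT 2 in both treatments (3.33 to 4.77). All were kept as separate libraries, and nothing in the labels says whether libraries of a group came from separate mice or cultures, so p-values measure the spread between libraries, which may be technical.

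DMXAA raised all 6 Ifit genes in WT-labelled BMDMs from FPKM (fragments per unit of gene length and library size, as deposited) near or below 2 to levels among the highest the family reached in the series. *Ifit1* had 0.645 and 1.78 FPKM in control libraries 1 and 2 and 1779 and 1888 FPKM under DMXAA. *Ifit2* had 2.04 and 1.93 FPKM in control and 3646 and 2338 FPKM under DMXAA. *Ifit3* had 0.842 and 2.20 FPKM in control and 4346 and 2627 FPKM under DMXAA. In each of these genes both treated libraries lay far above both controls. The log2 fold change was 10.44 ± 0.55 (SE, 2 libraries per group) for *Ifit1*, 10.44 ± 0.30 for *Ifit2* and 11.04 ± 0.57 for *Ifit3*, with adjusted p of 3.79e-05, 7.32e-06 and 3.79e-05 by edgeR's quasi-likelihood test with Benjamini-Hochberg adjustment over 11569 genes. All 6 members were called higher (adjusted p under 0.05), where 18.4% of all genes tested were. Bulk RNA of this kind cannot tell fewer cells with a transcript from less of it in each cell.

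**Figure D1:**
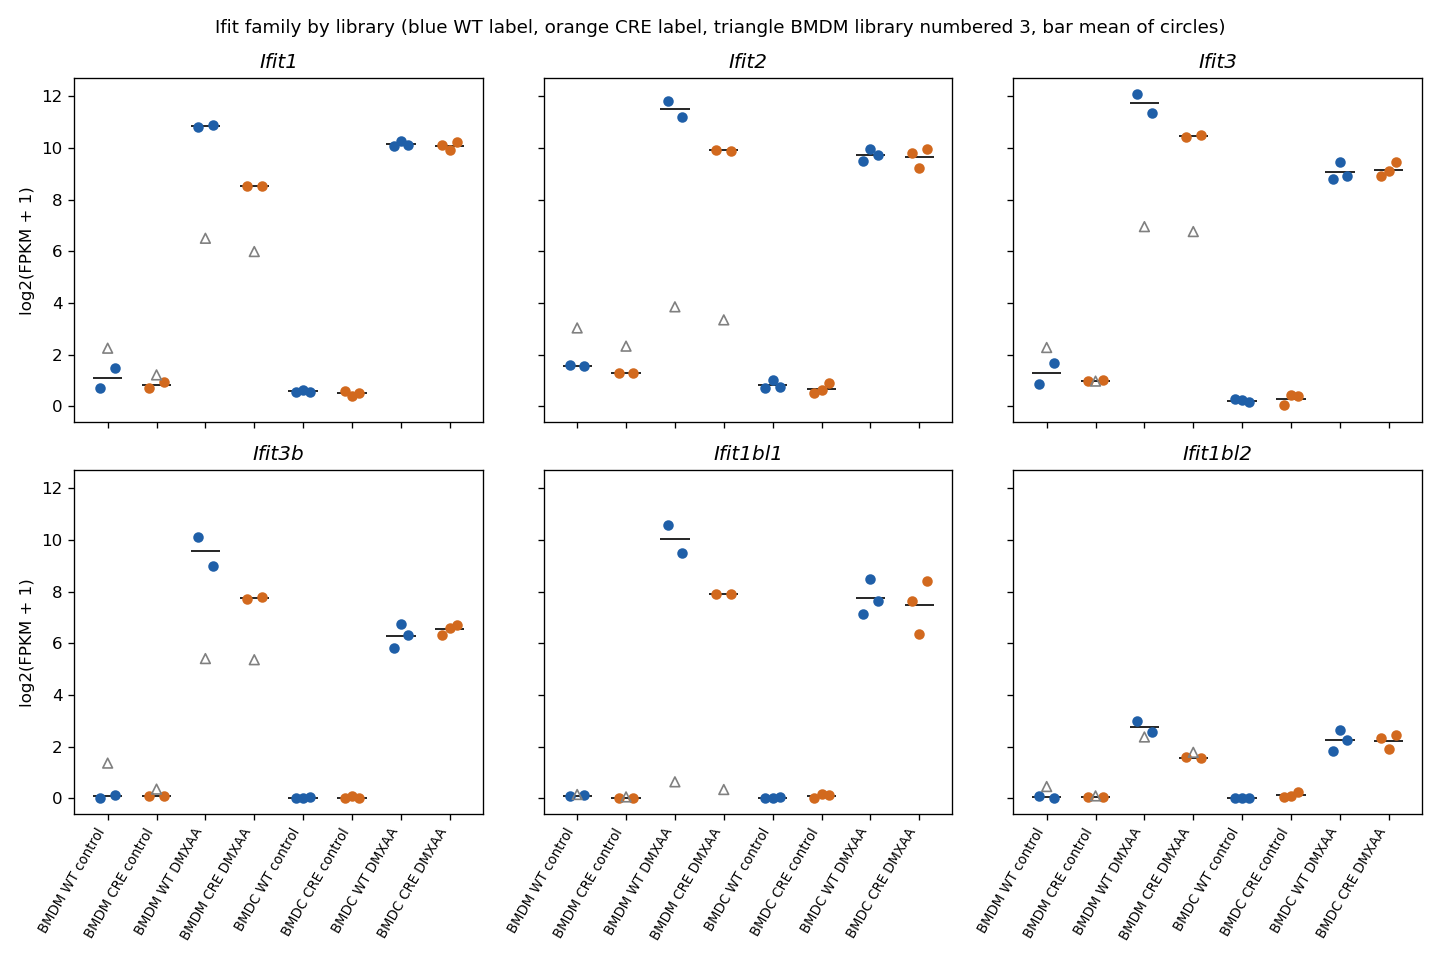
Each panel plots log2(FPKM + 1) of 1 Ifit gene in the 24 libraries, by group along the horizontal axis, with WT-labelled libraries in blue, CRE-labelled libraries in orange, the BMDM libraries numbered 3 as open triangles and a bar at the mean of the filled points. All filled DMXAA points lie above all control points of their cell type in the 6 genes, and the triangles of *Ifit2* and *Ifit1bl1* stay near the control level under DMXAA.

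The 3 less studied members started from almost no reads. *Ifit3b*, the copy of *Ifit3*, had 0.0245 and 0.0948 FPKM in WT-labelled BMDM controls, from 1 and 4 counts, and 1098 and 513 FPKM under DMXAA. *Ifit1bl1*, an *Ifit1*-like gene, had 0.0646 and 0.0833 FPKM, from 3 and 4 counts, and then 1506 and 716 FPKM. *Ifit1bl2*, the other *Ifit1*-like gene, had 0.0582 and 0 FPKM, from 4 and 0 counts, and then 6.99 and 4.91 FPKM. Under DMXAA *Ifit3b* and *Ifit1bl1* thus stood at 513 FPKM or more, and *Ifit1bl2* remained under 7 FPKM. Fitted fold changes against so few counts depend on the prior count, so the ratio of summed counts, scaled to depth, is given with its 95% interval, which covers counting error only: 11860 (5082 to 36528) for *Ifit3b*, 13294 (6452 to 33068) for *Ifit1bl1* and 189 (73.3 to 695) for *Ifit1bl2*. The adjusted p was 2.66e-05, 2.04e-05 and 0.000469 by edgeR's quasi-likelihood test.

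The CRE-labelled BMDMs also answered DMXAA with all 6 members, at lower levels. *Ifit1* rose from 0.632 and 0.930 FPKM to 371 and 368 FPKM. *Ifit2* rose from 1.42 FPKM in both controls to 974 and 938 FPKM. *Ifit3* rose from 0.961 and 1.01 FPKM to 1381 and 1444 FPKM. The treated pairs were close to each other and well separated from the controls, with log2 fold changes of 8.85 ± 0.52, 9.37 ± 0.29 and 10.45 ± 0.57 (SE, 2 libraries per group). *Ifit3b* had 0.0559 and 0.0756 FPKM in control and 211 and 218 FPKM under DMXAA. *Ifit1bl1* had 0 and 0.0222 FPKM, from 1 count in all, and then 239 and 236 FPKM, a ratio of summed counts of 20052 with a counting interval of 3599 to 792072. *Ifit1bl2* had 0.0498 and 0.0449 FPKM, from 3 counts each, and then 2.02 and 1.95 FPKM. All 6 were called higher, where 7.28% of genes tested were, with adjusted p from 2.40e-05 for *Ifit2* to 0.00499 for *Ifit1bl2* by edgeR's quasi-likelihood test. The call of *Ifit1bl2* was lost without control library 1 (adjusted p = 0.0822) or without control library 2 (adjusted p = 0.0890), and over the alternatives run its adjusted p reached at most 0.339.

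**Figure D2:**
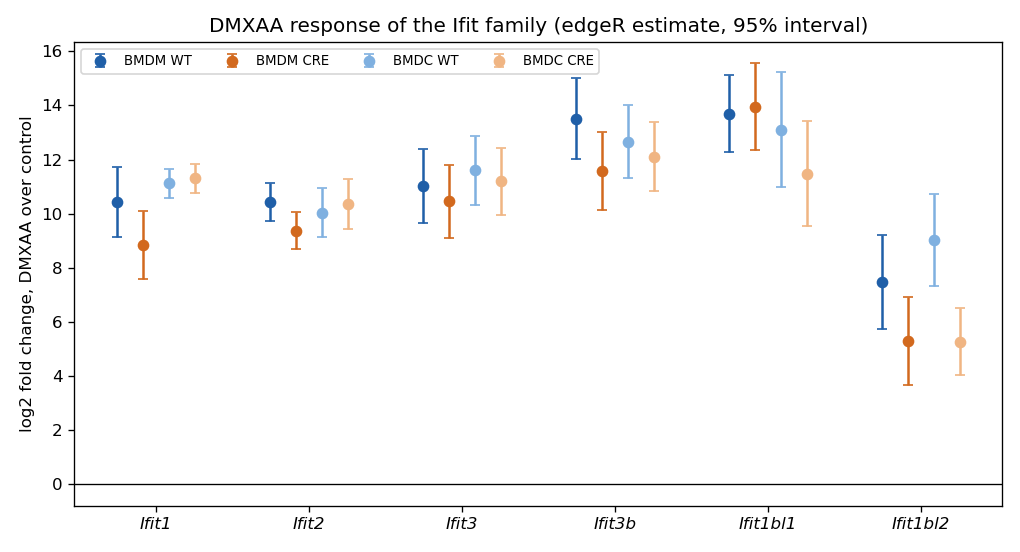
The log2 fold change of DMXAA over control (vertical axis, edgeR estimate) is plotted for each Ifit gene in the 4 combinations of cell type and genotype label, with bars at the 95% interval. Estimates lie between 8.85 and 13.94 in 5 of the genes and between 5.28 and 9.04 in *Ifit1bl2*, and all intervals lie above 0.

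With the libraries numbered 3 included, 0 of the 6 members were called in either BMDM response, although all 6 kept their direction and an unadjusted p under 0.05. In that fit 0.0864% of all genes were called higher in the WT-labelled response and 0 in the CRE-labelled response. The adjusted p of the members then ran from 0.0646 for *Ifit1* to 0.194 for *Ifit2* in the WT-labelled response and from 0.152 for *Ifit3* to 0.611 for *Ifit2* in the CRE-labelled response by edgeR's quasi-likelihood test.

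In the BMDM libraries numbered 3 the family moved unevenly. With 1 control and 1 DMXAA library per genotype label there is no replicate and no test, and the values stand as those of single libraries. *Ifit1* went from 3.77 to 89.9 FPKM in the WT-labelled pair and from 1.33 to 62.7 FPKM in the CRE-labelled pair. *Ifit3* went from 3.86 to 123 FPKM and from 0.974 to 108 FPKM, and *Ifit3b* from 1.58 to 41.5 FPKM and from 0.283 to 40.2 FPKM. These 3 genes were thus 23.8 to 142 times higher in the DMXAA library, though below every DMXAA library numbered 1 or 2. *Ifit2* went only from 7.21 to 13.5 FPKM and from 4.04 to 9.20 FPKM, ratios of 1.87 and 2.28. *Ifit1bl1* went from 0.111 to 0.561 FPKM, 6 and 31 counts, and from 0.0415 to 0.269 FPKM, 2 and 15 counts.

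*Ifit2* is among the most abundant members in all other treated libraries, and in these libraries it made up 4.13% and 4.94% of the summed Ifit FPKM against 26.1% to 32.3% in the other 10 DMXAA libraries. Its lowest FPKM under DMXAA in BMDM libraries 1 and 2 was 69.7 times its highest in the libraries numbered 3, where the same ratio was 4.10 for *Ifit1* and 421 for *Ifit1bl1*. These ratios depend on the scaling. The library size behind the FPKM was 11308414 to 16618728 in the former and 24293855 and 24466270 in the latter. In CPM the same lowest and highest values were 3259 and 70.4 for *Ifit2*, 865 and 318 for *Ifit1*, and 475 and 1.70 for *Ifit1bl1*, which are smaller gaps. *Ifit1bl2* differed from both patterns, since its 4.19 and 2.44 FPKM in the libraries numbered 3 lay at the level of the 1.95 to 6.99 FPKM in libraries 1 and 2. In CPM these were 18.8 and 10.6 against 5.81 to 16.2. In the control libraries numbered 3, *Ifit2* was higher than in the other BMDM controls, at 7.21 and 4.04 FPKM against 1.42 to 2.04 FPKM. So were *Ifit3b*, at 1.58 and 0.283 against 0.0245 to 0.0948 FPKM, and *Ifit1bl2*, at 0.375 and 0.0701 against 0 to 0.0582 FPKM. *Ifit1*, *Ifit3* and *Ifit1bl1* were higher only in the WT-labelled control numbered 3. The libraries numbered 3 also had the low leukocyte and high fibroblast markers given above, and the part of these in the pattern was not tested.

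**Figure D3:**
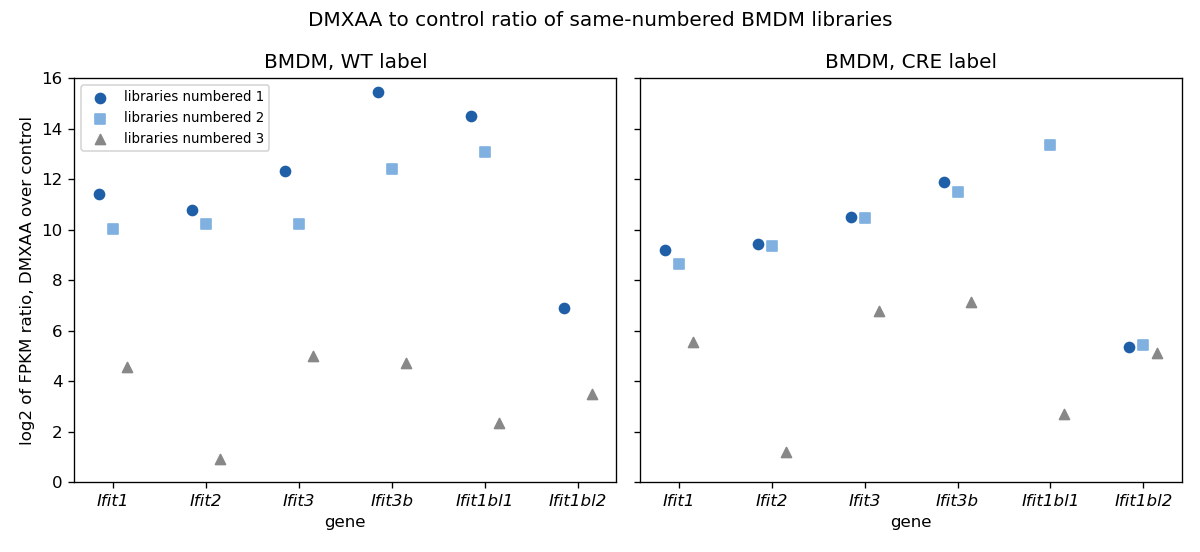
The log2 ratio of FPKM under DMXAA to FPKM in control (vertical axis) is plotted for each Ifit gene between same-numbered BMDM libraries, WT label on the left and CRE label on the right, with 1 point per pair and none where the control was at 0. The grey triangles of the libraries numbered 3 lie below the other points of the same gene, with the widest gaps in *Ifit2* and *Ifit1bl1* and almost none in CRE-labelled *Ifit1bl2*.

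In BMDCs the family rose from still lower control levels to 605 to 1228 FPKM for *Ifit1* and *Ifit2* in both genotype labels. *Ifit1* had 0.467, 0.556 and 0.479 FPKM in the WT-labelled controls and 1082, 1228 and 1103 FPKM under DMXAA. *Ifit2* had 0.645, 1.05 and 0.687 FPKM and then 716, 1007 and 841 FPKM. *Ifit3* had 0.216, 0.175 and 0.117 FPKM and then 444, 705 and 486 FPKM. No treated library overlapped a control, and *Ifit1* varied least among the treated libraries. Its log2 fold change was 11.12 ± 0.25 (SE, 3 libraries per group), with the lowest adjusted p of all 12126 genes tested, 5.18e-10 by edgeR's quasi-likelihood test. *Ifit2* followed with 10.04 ± 0.41 and *Ifit3* with 11.60 ± 0.58, at adjusted p of 4.77e-08 and 2.00e-07.

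*Ifit3b* had 0, 0 and 0.0255 FPKM in the WT-labelled BMDC controls, a single count, and 54.8, 107 and 79.4 FPKM under DMXAA. *Ifit1bl1* had 0.0237, 0 and 0.0448 FPKM, 3 counts in all, and then 139, 359 and 199 FPKM. *Ifit1bl2* had 0, 0 and 0.0151 FPKM, a single count, and then 2.55, 5.32 and 3.76 FPKM. Library 2 was the highest of the treated libraries in all 3 of these genes, and also in *Ifit1*, *Ifit2* and *Ifit3*. The ratios of summed counts, with counting intervals, were 9194 (1650 to 363194) for *Ifit3b*, 10111 (3459 to 49033) for *Ifit1bl1* and 748 (134 to 29582) for *Ifit1bl2*. All 6 members were called higher, where 17% of genes tested were.

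The CRE-labelled BMDCs gave 1102, 978 and 1186 FPKM of *Ifit1* under DMXAA, from 0.497, 0.339 and 0.423 FPKM in control. *Ifit2* had 0.424, 0.553 and 0.858 FPKM and then 888, 605 and 983 FPKM. *Ifit3* had 0.0280, 0.364 and 0.337 FPKM and then 480, 554 and 708 FPKM. Each treated library again stood far above each control. *Ifit3b* reached 78.6, 96.5 and 104 FPKM from 2 counts over the 3 controls, and *Ifit1bl1* reached 200, 81.8 and 342 FPKM from 9 counts. *Ifit1bl2* reached 4.09, 2.75 and 4.40 FPKM from 18 counts. All 6 were called higher, where 14% of genes tested were, and *Ifit1* (11.30 ± 0.25 on the log2 scale, SE) again had the lowest adjusted p, 4.76e-10 by edgeR's quasi-likelihood test. In both labels, leaving out any library of the compared groups in turn kept 6 of 6 called.

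The comparison of the genotype labels asks how the response differed between cells labelled CRE and cells labelled WT. In BMDMs under DMXAA all 6 members had lower values in both CRE-labelled libraries than in both WT-labelled libraries numbered 1 and 2. *Ifit1*, at 371 and 368 against 1779 and 1888 FPKM, differed by -2.26 ± 0.38 on the log2 scale (CRE minus WT, SE, 95% interval -3.16 to -1.37, adjusted p = 0.00955 by edgeR's quasi-likelihood test). *Ifit1bl1*, at 239 and 236 against 1506 and 716 FPKM, differed by -2.17 ± 0.34 (adjusted p = 0.00748 in the same edgeR test). *Ifit3b* differed by -1.85 ± 0.35 and *Ifit2* by -1.59 ± 0.20, with adjusted p of 0.0141 and 0.00410 in that edgeR test. These 4 of 6 members were called lower, where 9.99% of genes tested were. *Ifit3* (-1.25 ± 0.37, 95% interval -2.14 to -0.36) and *Ifit1bl2* (-1.53 ± 0.50, -2.71 to -0.35) did not pass, at adjusted p of 0.0606 and 0.0770 by edgeR, and both passed with DESeq2 (0.00271 and 0.000807). Over the alternatives run, their adjusted p ranged from 1.18e-06 to 0.9999 and from 0.000807 to 0.9999.

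These 4 calls rest on 2 libraries per label, and the CRE-labelled pair lay closest of all BMDM pairs in its counts. With that pair summed into 1 library per treatment, a choice made after its closeness was seen, the differences were -2.27 for *Ifit1*, -2.18 for *Ifit1bl1*, -1.86 for *Ifit3b* and -1.60 for *Ifit2*. Such a fit leaves 1 library in each CRE-labelled group. The 4 calls depended on counting these close libraries as separate, and on keeping both CRE-labelled DMXAA libraries. With all 12 BMDM libraries 0 of 6 were called, where 0% of genes were called lower by edgeR, and 0 of 6 reached an unadjusted p under 0.05. *Tmem173* itself was lower under DMXAA in the CRE-labelled libraries, at 9.12 and 10.1 against 31.8 and 22.8 FPKM (-1.45 ± 0.24, adjusted p = 0.00921 by edgeR's quasi-likelihood test), and with that pair summed this difference did not pass (adjusted p = 0.242), nor did it with all 12 libraries (-1.11, adjusted p = 0.9999). In control *Tmem173* was not called between the labels in BMDMs, with means of 9.60 and 12.3 FPKM (CRE minus WT -0.39 ± 0.23, adjusted p = 0.772 by edgeR). In the WT-labelled BMDMs it rose by 1.04 ± 0.24 on the log2 scale under DMXAA, against -0.02 ± 0.24 in the CRE-labelled ones. In BMDCs it was not called between the labels in control (-0.43 ± 0.28) or under DMXAA (-0.43 ± 0.28).

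**Figure D4:**
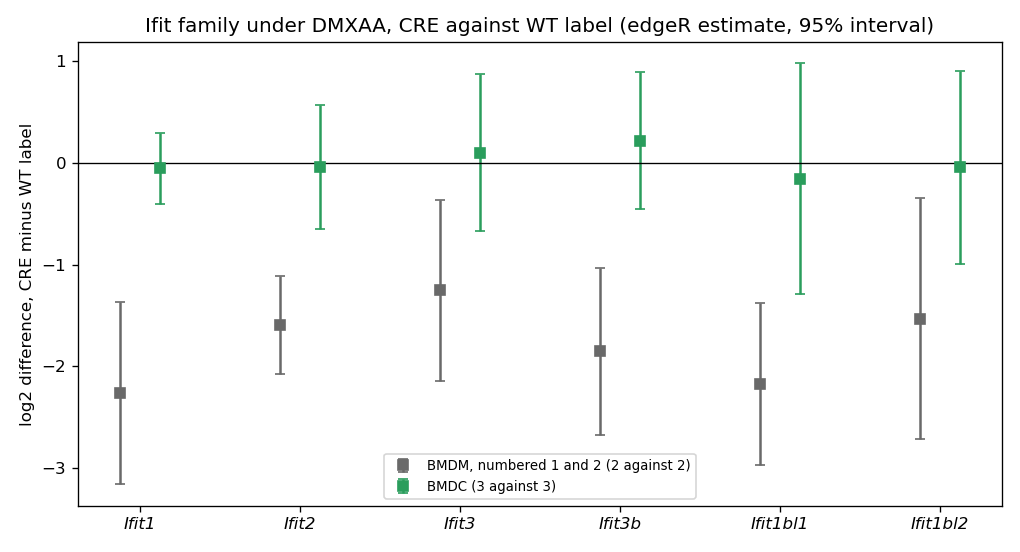
The log2 difference between CRE-labelled and WT-labelled cells under DMXAA (vertical axis, CRE minus WT, edgeR estimate with 95% interval) is plotted for each Ifit gene, in BMDMs numbered 1 and 2 and in BMDCs. The BMDM estimates run from -2.26 to -1.25 with intervals below 0, and the BMDC estimates from -0.16 to 0.22 with intervals that span 0.

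Without agonist, 0 of 6 members were called between the labels in BMDMs by edgeR or DESeq2, and 0 reached an unadjusted p under 0.05, where 0.0432% of genes were called higher and 0 lower. *Ifit1* was at 0.632 and 0.930 FPKM in CRE-labelled and at 0.645 and 1.78 FPKM in WT-labelled controls, which overlap, as did *Ifit3*, *Ifit3b* and *Ifit1bl2*. *Ifit2* did not overlap, at 1.42 FPKM in both CRE-labelled against 2.04 and 1.93 FPKM in WT-labelled controls (-0.52 ± 0.22, 95% interval -1.04 to 0.0024). Nor did *Ifit1bl1*, with 1 count in all against 7. The difference of the responses, tested as an interaction, was -1.58 ± 0.59 for *Ifit1* (95% interval -2.98 to -0.19), -1.08 ± 0.29 for *Ifit2* (-1.78 to -0.37) and -0.58 ± 0.61 for *Ifit3* (-2.05 to 0.88). It was called in 0 of 6 members, where 3.66% of all genes passed, with adjusted p of 0.194, 0.106 and 0.669 by edgeR's quasi-likelihood test, and 2 of the 6 had an unadjusted p under 0.05. DESeq2 called 2 of the 6, and the share of all genes it called was not counted.

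In BMDCs under DMXAA the labels were close. *Ifit1* was at 1102, 978 and 1186 FPKM in CRE-labelled and at 1082, 1228 and 1103 FPKM in WT-labelled libraries, a log2 difference of -0.05 ± 0.16 with a 95% interval of -0.40 to 0.29. *Ifit2* differed by -0.04 ± 0.28 (-0.65 to 0.57) and *Ifit3* by 0.10 ± 0.35 (-0.67 to 0.87), and all groups overlapped. In edgeR's quasi-likelihood test 0 of 6 members were called and 0 reached an unadjusted p under 0.05, where 0 of the 12126 genes were called, and DESeq2 called 0 of the 6. The interval was widest for *Ifit1bl1* (-1.29 to 0.97) and does not show that the labels act alike.

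In the BMDC controls and in the BMDC interaction 0 of 6 members were called by edgeR or DESeq2, where 0 of all genes were, and 1 of 6 had an unadjusted p under 0.05 in each. That member was *Ifit1bl2*, with 2, 5 and 11 counts in the CRE-labelled and 0, 0 and 1 count in the WT-labelled controls, a ratio of 18.1 with a counting interval of 2.85 to 753 and an adjusted p of 1 by edgeR. BMDC libraries of opposite labels were closest to each other in their counts over all genes, and the part of this in the small differences between labels was not tested.

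The order of the members was not the same in the 2 cell types. In BMDMs numbered 1 and 2 under DMXAA the order by FPKM was *Ifit3*, *Ifit2*, *Ifit1*, *Ifit1bl1*, *Ifit3b*, *Ifit1bl2* in all 4 libraries. In all 6 treated BMDC libraries *Ifit1* led, followed by *Ifit2* and *Ifit3*. *Ifit1* made up 11.5% to 23.3% of the summed Ifit FPKM in the BMDM libraries and 35.6% to 44.4% in the BMDC libraries, and *Ifit3* 32.5% to 45.0% against 17.4% to 23.9%. *Ifit2* took a like part in both, 28.9% to 30.7% and 26.1% to 32.3%. The ratio of *Ifit1* to *Ifit3* in FPKM was 0.255 to 0.719 in these BMDM libraries and 1.67 to 2.44 in BMDCs, without overlap, and 0.581 and 0.730 in the BMDM libraries numbered 3. The ratio of *Ifit3* to its copy *Ifit3b* was 3.96 to 6.62 in BMDMs numbered 1 and 2, 5.74 to 8.11 in BMDCs and 2.68 and 2.97 in the libraries numbered 3, with the split of their shared reads uncertain. The family as a whole took 0.722% to 2.22% of all counts in the former, 0.544% to 0.816% in BMDCs and 0.0621% and 0.0805% in the libraries numbered 3, and in all controls at most 0.00657%.

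**Figure D5:**
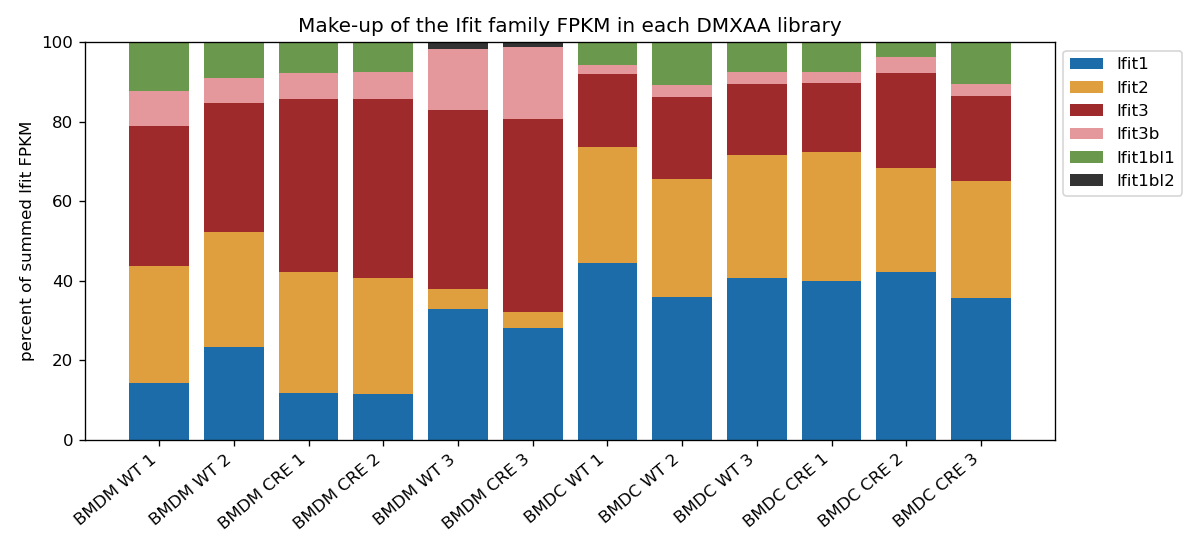
Each bar is 1 DMXAA library and shows the percent of its summed Ifit FPKM (vertical axis) that each of the 6 genes made up, with BMDM libraries numbered 1 and 2 first, then the BMDM libraries numbered 3, then BMDCs. *Ifit3* is the widest band in all BMDM bars and *Ifit1* in all BMDC bars, and the *Ifit2* band narrows to 4.13% and 4.94% in the libraries numbered 3.

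Between WT-labelled BMDCs and BMDMs under DMXAA, 4 of 6 members were called lower in BMDCs, where 15.3% of genes were. *Ifit3b* differed most, at 54.8, 107 and 79.4 against 1098 and 513 FPKM (-3.27 ± 0.35 on the log2 scale, BMDC minus BMDM, SE, adjusted p = 7.88e-06 by edgeR's quasi-likelihood test). *Ifit3* differed by -2.62 ± 0.40, *Ifit1bl1* by -2.20 ± 0.52 and *Ifit2* by -1.75 ± 0.28, all with an adjusted p of 0.00456 or less in that edgeR test. *Ifit1* (-0.64 ± 0.26, adjusted p = 0.0788) and *Ifit1bl2* (-0.56 ± 0.49, adjusted p = 0.418) did not pass in edgeR, although the libraries of *Ifit1* did not overlap, and *Ifit1* passed with DESeq2 (adjusted p = 0.0271, and 0.00661 to 0.928 over the alternatives run). *Ifit1bl1* lost its call without WT-labelled DMXAA library 1 of the BMDMs (-1.58, adjusted p = 0.0799 by edgeR, with at most 0.533 over the alternatives run). The 7 macrophage markers also differed between these cultures, at 2043 to 8947 CPM summed in BMDCs against 9420 to 21076 in BMDMs numbered 1 and 2, and the part of this in the difference was not tested.

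In control, *Ifit1* (-1.33 ± 0.31), *Ifit2* (-1.38 ± 0.31) and *Ifit3* (-3.20 ± 0.57) were called lower in WT-labelled BMDCs than in BMDMs, 3 of 6 members where 15.4% of genes were, with adjusted p of 0.00467, 0.00307 and 0.000519 by edgeR's quasi-likelihood test. Counts were low here, with 17 counts of *Ifit3* over the 3 BMDC controls and 111 over the 2 BMDM controls, and *Ifit1* lost its call without BMDM control library 2 (-0.38, adjusted p = 0.392 by edgeR, the highest over the alternatives run). The difference of the 2 responses, tested as an interaction of cell type and DMXAA, was called in 0 of 6 members by edgeR or DESeq2, where 2.61% of genes were, and 0 had an unadjusted p under 0.05. It was 0.70 ± 0.41 for *Ifit1* (95% interval -0.18 to 1.57), -0.38 ± 0.42 for *Ifit2* and 0.58 ± 0.69 for *Ifit3*. With all 24 libraries the control comparison called *Ifit3* (-3.77, adjusted p = 0.0316), *Ifit3b* (-5.60, 0.0396) and *Ifit1bl2* (-4.39, 0.0241) lower by edgeR, where 3.82% of genes were. *Ifit1* and *Ifit2* then lost their calls (adjusted p of 0.116 and 0.291 by edgeR). In WT-labelled BMDM controls 1, 2 and 3, *Ifit3b* had 1, 4 and 75 counts and *Ifit1bl2* had 4, 0 and 30. Without the libraries numbered 3, *Ifit3b* and *Ifit1bl2* were not called (adjusted p of 0.196 and 0.255 by edgeR). In the fit on all 24, 0 of 6 members were called between the cell types under DMXAA, where 4.79% of genes were called lower.

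The wider pathway was read from 21 genes of interferon signalling, from the DNA sensor to the response complex, a list written with results of these data known. In WT-labelled BMDMs 16 of the 20 tested were called higher and 0 lower (18.4% and 20.7% of all genes), with a median log2 fold change of 3.50 against -0.08 over all genes. In WT-labelled BMDCs 16 of 21 were called higher and 2 lower (17% and 15.2% of all genes), with a median of 1.90 against 0.01. These counts include *Ifnb1*, and in BMDCs *Ifna4*, which were at 0 in all fitted controls of either label. Such genes pass the filter through DMXAA alone and can only be called higher. *Ifnb1*, which encodes interferon beta, was listed at 0 in the BMDC and BMDM controls of the WT label and had means of 49.3 FPKM in BMDCs and 10.8 FPKM in BMDMs under DMXAA. *Ifna4*, an alpha interferon, reached a mean of 33.7 FPKM in BMDCs and 0.0617 FPKM in BMDMs, where it was not tested. *Isg15*, a ubiquitin-like modifier, rose by 9.85 ± 0.29 in BMDCs and 8.58 ± 0.59 in BMDMs on the log2 scale, and *Irf7*, the factor that amplifies interferon transcription, by 7.23 ± 0.36 and 8.43 ± 0.31. The 2 genes called lower in BMDCs were *Irf3* (-0.59 ± 0.15) and *Mavs* (-0.58 ± 0.20), the adaptor of the RNA sensors, both named after their values were seen. *Jak1* (0.31 ± 0.14) and *Tmem173* (0.09 ± 0.28) did not pass in BMDCs, and were called higher in BMDMs (0.64 ± 0.12 and 1.04 ± 0.24). In CRE-labelled BMDMs under DMXAA, 12 of the 20 were called lower than with the WT label and 1 higher (9.99% and 9.26% of all genes). With the close CRE-labelled pair summed or with all 12 BMDM libraries, 0 of the 20 and 0 of all 11569 genes were called by edgeR, with 475 of all genes at an unadjusted p under 0.05 in the fit on all 12. *Ifnb1*, called lower in the main fit, had a mean of 0.0413 FPKM against 10.8 FPKM. In BMDMs it passed the filter only through the WT-labelled DMXAA libraries.

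Of 7 genes for translation factors that Ifit proteins contact or for enzymes of the mRNA cap, *Cmtr1*, which puts the methyl mark next to the cap, was called higher in WT-labelled BMDMs (1.58 ± 0.26 on the log2 scale, from a mean of 0.345 to 1.11 FPKM) and *Cmtr2*, which marks the following position, lower (-1.03 ± 0.21), against 18.4% and 20.7% of all genes. In CRE-labelled BMDMs mean *Cmtr1* was 0.458 FPKM in control and 0.721 FPKM under DMXAA. It may thus have passed the filter of 1 FPKM only through the WT-labelled DMXAA libraries, and its call says little. In WT-labelled BMDCs 6 were tested, *Cmtr1* staying below the filter, and *Cmtr2* was called lower (-0.85 ± 0.20), against 15.2% of all genes. The cap methyltransferase gene *Rnmt* (-0.45 ± 0.21 in BMDCs and -0.47 ± 0.20 in BMDMs), its activator *Rammet* (-0.12 ± 0.35 and 0.00 ± 0.15), the cap-binding *Eif4e* (0.43 ± 0.20 and -0.22 ± 0.33), and *Eif3c* (0.14 ± 0.12 and 0.30 ± 0.15) and *Eif3e* (-0.03 ± 0.31 and -0.09 ± 0.16) of the initiation factor that Ifit proteins bind did not pass in either cell type.

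Among 11700 genes averaging 1 FPKM or more, and with the family itself left out of the ranking, the profile most like that of *Ifit1* over the 24 libraries was that of *Isg15*, with a root mean square difference of 0.404 in centred log2(FPKM + 1). *Cxcl10*, a chemokine gene, came next outside the family at 0.889, then *Cmpk2*, a nucleotide kinase gene, at 1.18, *Irf7* at 1.31 and *Iigp1*, an immunity-related GTPase gene, at 1.34. Within the family *Ifit3* (0.851) and *Ifit2* (0.992) were closest to *Ifit1*, both nearer than *Cmpk2* and *Ifit3* also nearer than *Cxcl10*, and *Ifit1bl2* (3.34) farthest. These distances describe libraries that share their treatments and their low values in control.

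The 3 nearest protein-coding genes on each side of the family are given for their values, without a test. *Lipa*, a lysosomal lipase gene 23.2 kb before *Ifit2*, was at a mean of 389 ± 118 FPKM (SD, n = 2) in WT-labelled BMDM controls and 444 ± 57.3 FPKM under DMXAA, and at 169 ± 11.1 and 244 ± 68.4 FPKM (SD, n = 3) in WT-labelled BMDCs. *Ch25h*, which encodes cholesterol 25-hydroxylase and lies 75.6 kb away, went from 4.08 ± 2.39 to 72.4 ± 32.3 FPKM in these BMDMs and was at 119 ± 47.1 and 213 ± 159 FPKM in these BMDCs. In CRE-labelled BMDMs numbered 1 and 2 it was at 2.36 ± 0.70 and 1.29 ± 0.06 FPKM, where the Ifit genes rose. *Fas*, a death receptor gene, was at 1.75 ± 0.94 and 14.5 ± 2.35 FPKM in WT-labelled BMDMs and at 1.33 ± 0.49 and 1.15 ± 0.02 FPKM in CRE-labelled BMDMs. On the other side, 18.4 kb after *Ifit1*, the transporter gene *Slc16a12* was at 0 in BMDMs numbered 1 and 2 and at most at a mean of 0.0506 FPKM in BMDCs. *Pank1*, a pantothenate kinase gene, was at 1.91 ± 1.07 and 0.336 ± 0.00151 FPKM in WT-labelled BMDMs, and *Kif20b*, a kinesin gene, at 2.42 ± 0.23 and 0.646 ± 0.465 FPKM.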

How the data were processed

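PolyA libraries (NEBNext Ultra RNA kit, as named in the labels without a stranded version) of 24 BMDM and BMDC samples were analysed from 1 table. Per the submitters' processing notes, the tools were CASAVA 1.8, fastp, HISAT2 2.0.5, featureCounts 1.5.0-p3 and DESeq2 1.20.0, with the builds GRCm38 and mm10. The authors deposited raw read counts per gene. The authors also deposited FPKM values, in which the counts are scaled to gene length and to an effective size of the library that is not its total. The deposited columns of log2 fold changes and p-values from the authors' own comparisons were not used. All 48 per-library columns matched a library by name, and 0 did not. Of 54409 gene identifiers matched to GENCODE, 98.3% had the same GRCm38 coordinates.

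Counts were tested with edgeR 4.0.16 (TMM scaling, quasi-likelihood, two-sided, Benjamini-Hochberg adjusted p under 0.05 over all genes tested) in R 4.3.3, with 1 fit each for BMDMs numbered 1 and 2, for BMDCs and for both together. Genes that reached 1 FPKM in 2 (BMDM and both) or 3 (BMDC) or more of the fitted libraries were tested, and all 6 Ifit genes passed. An Ifit gene can pass this filter through DMXAA alone, as can a listed gene that is low in control, such as *Ifnb1*, *Ifna4* or *Cmtr1*. Counts of calls over the members and lists therefore say little by themselves. Alternatives used DESeq2 1.42.0, limma 3.58.1 on log2(FPKM + 1) or log2(FPKM + 0.1), other filters, scaling, blocks and left-out libraries. Intervals of count ratios are exact at 95%, and without molecular identifiers they cover counting error only. The fits were tested on simulated data. To see whether equal numbers pair libraries, deviations from group means were correlated. In BMDCs r was 0.417 to 0.692 between control and DMXAA of a label. Across labels it was -0.514 to -0.129 within a treatment and -0.500 to 0.033 between treatments. Numbers were thus read as pairing treatments within a label. The main fits used group means without this pairing, which entered only as an alternative. In BMDMs 1 and 2 r was 0.037 to 0.685 within a label. Figures were drawn with matplotlib 3.10.9.

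Named genes are the 6 members, from each list the 4 tested genes with the largest and the 2 with the smallest absolute log2 fold change in WT-labelled BMDCs, 3 protein-coding neighbours on each side, the 5 genes most like *Ifit1* and *Tmem173*. The members and all lists were chosen with earlier results of these data known.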

Additional observations from a re-analysis of the deposited data

How the results depend on the processing

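The Ifit genes tested stayed called higher in both BMDC responses under the alternatives run, and in the WT-labelled BMDM response under all but the use of all 12 BMDM libraries (0 of 6 called). These were all 6 except at an FPKM of at least 5, where *Ifit1bl2* was not tested and 5 of 5 were called. The use of all 12 BMDM libraries also gave 0 of 6 in the CRE-labelled response and between the labels under DMXAA. It left 2 of the interferon signalling genes and 0 of the partner and cap genes called in the WT-labelled response. All 24 libraries gave 0 of 6 between the cell types under DMXAA. Summing CRE-labelled BMDM libraries 1 and 2, chosen after seeing the data, took away the calls between the labels, with 1 library left per CRE-labelled group. It gave 1 partner or cap gene in the WT-labelled response. An FPKM of at least 5 gave 0 partner or cap genes in either cell type. For the interaction in BMDMs (0 of 6), DESeq2, limma on log2(FPKM + 1) and no filter each called 2. For the interaction of cell type and DMXAA (0 of 6), limma called 2 with a pseudocount of 1 and 1 with 0.1. The share of all genes called by DESeq2, limma or without the filter was not counted, so these settings may call more genes throughout. The causes were not tested.

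Leaving out a library, which leaves 1 in its BMDM group, moved the BMDM genotype calls under DMXAA in both directions and also moved the BMDM interaction. The difference between labels in BMDCs under DMXAA, which was not called, then ran from -0.14 to 0.012 for *Ifit1*, -0.20 to 0.13 for *Ifit2* and -0.085 to 0.33 for *Ifit3*. The interaction of cell type and DMXAA, also not called, ran from -0.26 to 1.23 for *Ifit1* and from -0.32 to 1.09 for *Ifit3*. It changed sign with limma at a pseudocount of 1 (*Ifit1* -0.18, *Ifit3* -1.60) and of 0.1 (*Ifit3* -0.19), and for *Ifit2* with all 24 libraries (1.02). The BMDM interaction of *Ifit3* was 0.0025 with all 12 libraries.

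With the replicate number as a block, 6 of 6 members stayed called in the 4 responses and 4 of 6 between the labels in BMDMs under DMXAA. The replicate block within genotype, the pairing the correlations show in BMDCs, gave 1 called member in the BMDM interaction and 3 partner or cap genes in WT-labelled BMDCs, and moved no other count of members. Control counts of *Ifit3b*, *Ifit1bl1* and *Ifit1bl2* limit the precision of their fold changes.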
